A study of Mus musculus with 5 samples.

Results

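The immediate early and stress response genes described here were 35 genes, found by their symbols among the 52542 mouse gene rows measured in single myeloid cells sorted from mouse brain. They were 13 inducible transcription factors (Fos, Fosb, Jun, Junb, Jund, Egr1, Atf3, Nr4a1, Klf2, Klf4, Klf6, Maff and Csrnp1), 15 early feedback and signalling regulators (Ier2, Ier5, Dusp1, Zfp36, Btg1, Btg2, Nfkbia, Nfkbiz, Rhob, Cd83, Socs3, Ppp1r15a, Mcl1, Rgs1 and Gadd45b) and 7 chaperones (Hspa1a, Hspa1b, Hsp90aa1, Hsp90ab1, Hspa8, Hspa5 and Dnajb1). All 35 had a row, and 34 of them had at least 1 molecule in the cells used, Maff being the exception. The study asked how blockade of the PD-1/PD-L1 immune checkpoint acts in a mouse model of tauopathy, and these libraries profiled brain myeloid cells. Every library came from DM-hTAU mice, which carry a human tau transgene with a pair of mutations linked to frontotemporal dementia, driven by the natural tau promoter. All were labelled with the treatment aPDL1, an antibody against PD-L1, and with an age of 9 month. The study also describes sorting from mice given a control antibody (IgG2b). The labels do not say whether any well held a cell of such a mouse. The 5 libraries, numbered 1 to 5 here, form 1 group by their labels, so no effect of the antibody, the transgene or age could be compared, and nothing in the labels ties a library to a mouse. p-values below therefore concern only the spread between libraries, which may be technical. edgeR draws this spread partly from all genes tested together, not from each gene alone.

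Immediate early genes are transcribed within minutes of a stimulus, from factors already present in the cell. FOS and JUN proteins pair to form the transcription factor AP-1, and many of the regulators made alongside them, such as the phosphatase DUSP1, the mRNA-decay protein ZFP36 and the NF-kB inhibitor encoded by Nfkbia, damp the same signals. Chaperones of the HSP70 and HSP90 families fold proteins, and several are induced by heat or by unfolded protein. In microglia and other brain macrophages this programme is also well known to be switched on while tissue is dissociated into single cells. The labels of these samples describe enzyme digestion of thymus and intestine although the tissue is given as brain. The methods of the study name perfused brain and a gentleMACS dissociator, without saying whether an enzyme was used. No library was prepared in a different way, so the contribution of cell preparation to the levels was not tested.

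The stretches of DNA around the start of 4 of these genes are shown. Fos, Jun and Rhob had an edgeR adjusted p under 0.05 in at least 1 comparison of cell classes below. For Fos this was only the comparison resting on 2 libraries, and DESeq2 did not keep it. Hspa1a is the heat shock gene that has a near copy. Each stretch runs from 250 bases before the start of the RefSeq transcript to 50 bases after it, in build GRCm38.p6. It is written 5′ to 3′ on the strand of the gene, with motif matches in capitals. The Fos stretch lies at chr12:85473640-85473939 on the plus strand and holds TGACG, the core of the cAMP response element. The Jun stretch, at chr4:95052173-95052472 on the minus strand, holds GAANNTTC, part of the heat shock element, and CCAAT. The Rhob stretch, at chr12:8499960-8500259 on the minus strand, holds CCAAT and its reverse complement. The Hspa1a stretch, at chr17:34972107-34972406 on the minus strand, holds GAANNTTC and the reverse complement of CCAAT.
Fos: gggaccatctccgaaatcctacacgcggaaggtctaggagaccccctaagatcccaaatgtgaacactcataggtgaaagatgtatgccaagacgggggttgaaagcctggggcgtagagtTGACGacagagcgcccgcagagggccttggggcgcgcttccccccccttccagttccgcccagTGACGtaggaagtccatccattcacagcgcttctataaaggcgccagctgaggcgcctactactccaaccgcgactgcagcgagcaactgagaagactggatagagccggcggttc
Jun: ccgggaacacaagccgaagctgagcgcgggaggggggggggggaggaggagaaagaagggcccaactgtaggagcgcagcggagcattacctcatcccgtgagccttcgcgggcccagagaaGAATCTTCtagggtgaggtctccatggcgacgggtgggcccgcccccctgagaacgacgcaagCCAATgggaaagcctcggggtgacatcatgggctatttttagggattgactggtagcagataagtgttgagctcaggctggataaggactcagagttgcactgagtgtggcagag
Rhob: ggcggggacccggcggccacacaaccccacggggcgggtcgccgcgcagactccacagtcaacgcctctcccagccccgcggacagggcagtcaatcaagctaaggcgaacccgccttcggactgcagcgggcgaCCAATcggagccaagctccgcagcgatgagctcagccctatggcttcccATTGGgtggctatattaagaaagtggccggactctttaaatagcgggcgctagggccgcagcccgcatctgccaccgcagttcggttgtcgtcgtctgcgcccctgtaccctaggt
Hspa1a: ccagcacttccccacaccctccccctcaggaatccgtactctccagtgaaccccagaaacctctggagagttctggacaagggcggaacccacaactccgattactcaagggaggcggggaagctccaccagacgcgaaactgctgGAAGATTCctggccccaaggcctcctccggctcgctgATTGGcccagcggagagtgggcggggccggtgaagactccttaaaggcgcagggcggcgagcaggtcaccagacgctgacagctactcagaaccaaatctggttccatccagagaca

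Promoter windows were given for 27 of the 35 genes, 33 windows in all, and the same motifs were counted on both strands of 32851 mouse windows of the same length. TGACG was present in 60.6% of the 33 windows and 16 of the 27 genes, including Fos, Fosb, Junb, Atf3, Nr4a1, Dusp1 and Hspa5, against 20.8% of all windows. CCAAT was found in 14 genes and 42.4% of their windows, against 37.4% of all windows. GAANNTTC was found in 3 genes, Hspa1a, Hspa1b and Jun (9.09% of the 33 windows), against 7.86% of all. The AP-1 site TGAGTCA or TGACTCA was found in Csrnp1 and Hspa5 (6.06%), against 5.20%. The CArG box, the site of serum response factor, was found only in the Zfp36 window (3.03%), against 1.63%. A match describes these letters in this window and does not show that a factor binds there. A site outside the window, or in a gene without a window, was not counted.

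Each library was a plate of 384 wells, with 1 cell sorted as CD45high CD11bhigh into 380 of them and 4 left empty, measured by MARS-seq, which counts captured 3′ ends of mRNA by unique molecular identifiers (UMIs). Cells with at least 500 UMIs were kept, which left 825 of 1900 cells with 1132493 UMIs. The plates differed in depth: libraries 1, 2 and 4 gave 68, 87 and 71 kept cells with median depths of 651 to 759 UMIs, and libraries 3 and 5 gave 285 and 314 cells with medians of 1168 and 1267.5. The same 384 well barcodes were used on every plate, with a different pool barcode for each. Among other cell types, T or NK cell markers were all detected (10 of 10, 96 UMIs), B cell markers had 292 UMIs with Cd79a, Ms4a1 and Pax5 at 0, endothelial markers had 107 UMIs with Cldn5 at 0, oligodendrocyte markers had 59, astrocyte markers had 57 with Gfap and Aqp4 at 0, neuronal markers had 3 with Snap25 at 0, erythrocyte markers had 1 and mast cell markers had 0.

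The 35 genes together held 8396 UMIs, or 74.1 per 10000 UMIs of the kept cells. By library, their summed level was 44.1, 55.4, 80.2, 54.1 and 77.2 per 10000 in libraries 1 to 5. The deeper libraries 3 and 5 were the highest and did not overlap the other three. Of the 8396 UMIs, 2599 came from the transcription factors, 3087 from the regulators and 2710 from the chaperones. The 20 empty wells held 320 UMIs in all, between 2 and 68 per well, and 0 of these were from the 35 genes. At the share seen in cells 2.37 would be present, and 0 counts allow up to 93.75 per 10000, so the empty wells were too shallow to show a background of these genes. Such limits and the intervals given here cover counting error only.

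A UMI stands for 1 captured 3′ end whatever the length of the transcript, so pooled levels per 10000 UMIs were compared between genes without a length correction. Differences between genes in capture or mapping were not checked. Hsp90ab1, the constitutive cytosolic HSP90, stood highest at 8.72 per 10000 (987 UMIs), followed by Hspa5, the chaperone BiP of the endoplasmic reticulum, at 7.69. Next came Fos at 6.54, Zfp36 at 5.39, Jun at 4.44, Hspa8, the constitutive cytosolic HSP70, at 4.35, and Mcl1, which encodes an anti-apoptotic protein of the BCL2 family, at 4.02. Rhob, a small GTPase gene that is itself an immediate early gene, stood at 3.72, the transcription factor gene Egr1 at 3.06 and Klf6, a Krüppel-like factor, at 2.98. In all, 19 of the 35 genes reached 1 per 10000. The classical heat-inducible genes were scarce: Hspa1a had 37 UMIs (0.327 per 10000), Hspa1b 49 (0.433) and Dnajb1, an HSP40 partner of HSP70, 75 (0.662). Several textbook immediate early genes were rarer still, with 14 UMIs of Fosb, 15 of the orphan nuclear receptor gene Nr4a1, 12 of Gadd45b, 17 of Csrnp1 and 7 of Nfkbiz.

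Hspa1a and Hspa1b are near copies, and 61.3% of the 40-base stretches of the Hspa1a transcript and 65.0% of those of Hspa1b occur in the other. In the last 500 bases, the part that 3′ counting reads, 0 of 461 stretches were shared. How the authors' counting treated reads matching both was not given in the sources used here, so the split between this pair is uncertain.

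Library by library over all kept cells, Fos was at 4.10, 6.38, 7.27, 2.93 and 6.62 per 10000 in libraries 1 to 5. Jun was at 3.17, 2.94, 4.34, 4.76 and 4.84. The order of libraries was therefore not the same for these partners: library 4 was lowest for Fos and second highest for Jun. Cells were next divided by marker genes, none of them a member.

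The kept cells were sorted into classes by the summed UMIs of marker lists. Cells passing only the microglia cut (P2ry12, Tmem119 and others) numbered 270, called microglia-like, and were present in every library (33, 25, 90, 29 and 93 cells). Cells passing only the border macrophage cut (Pf4, Mrc1, Cbr2, Lyve1 and others) numbered 105, of which 53 and 46 were in libraries 3 and 5, while libraries 1, 2 and 4 held 3, 1 and 2. Their microglia markers pooled to 50.8 per 10000, against 245 in the microglia-like class, and 18 of them lay within 25% of the cut, so the class is not free of microglial transcripts. Cells passing the monocyte or dendritic cell cut (Ly6c2, Ccr2, Plac8, Cd209a, Flt3 and others) numbered 123, as 9, 14, 43, 10 and 47 by library. Cells above the neutrophil cut (S100a8, S100a9, Retnlg and others), whatever else they passed, numbered 31, with 15, 3, 6 and 7 in libraries 2 to 5. The sort was gated for monocyte-derived macrophages, and the largest of these classes carried microglia markers. A further 236 cells passed no cut and 60 passed several of the other cuts. Median depth was 1029.5, 879, 1233 and 686 UMIs in the microglia-like, border macrophage-like, monocyte- or dendritic cell-like and neutrophil-like classes, and the median share of mitochondrial UMIs was 7.80, 11.5, 10.2 and 4.96%. The part of these differences in the results below was not tested.

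Of these 4 classes, the sum of the 35 genes was highest in the border macrophage-like one, at 92.4 ± 1.37 per 10000 (SD, n = 2 libraries), with 93.4 in library 3 and 91.4 in library 5. In the microglia-like class it was 67.5 ± 12.5 (SD, n = 5), with 49.0, 66.8, 79.3, 63.5 and 79.0 in libraries 1 to 5. In the monocyte- or dendritic cell-like class it was 53.8 ± 20.1 (SD, n = 5), with 33.4, 47.2, 79.4, 38.6 and 70.4. The border macrophage-like sums lay above every microglia-like and monocyte- or dendritic cell-like sum, including those of libraries 3 and 5, whereas the other classes overlapped across libraries. This rests on 2 libraries: with cells from 300 UMIs, when 5 libraries entered, the border macrophage-like sum was 84.2 ± 23.0 and the microglia-like sum 67.2 ± 14.7 (SD, n = 5 each). The neutrophil-like class was lowest, at 26.7 ± 17.8 (SD, n = 3), with 27.6, 8.58 and 44.1 in libraries 2, 4 and 5. Neutrophil markers pooled to 3346 per 10000 UMIs in this class, against 7.89 to 16.4 in the other 3 classes. That lowers the share of every other gene in it, here and below, and no correction was made. Cells that passed no cut stood at 62.8 ± 12.96 (SD, n = 5). No test was made on a sum over chosen genes.

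**Figure D1:**
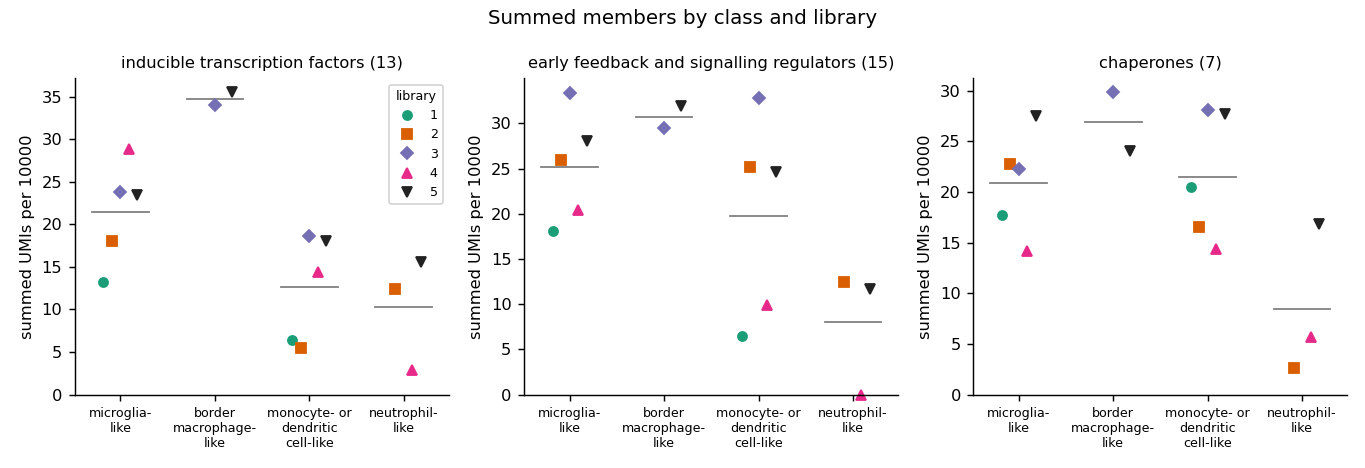
Summed UMIs per 10000 of the transcription factors (13 genes, left), regulators (15 genes, middle) and chaperones (7 genes, right) in each cell class; each point is 1 library with at least 5 cells of the class, the symbol gives the library and the grey line the mean over libraries. The 2 border macrophage-like points for the transcription factors, at 34.0 and 35.5, sit above all points of the other classes, while the chaperone points of the first 3 classes overlap.

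The 3 groups of genes did not follow the classes in the same way. The transcription factors summed to 34.8 ± 1.03 per 10000 in border macrophage-like cells (SD, n = 2), 21.5 ± 5.97 in microglia-like cells (n = 5), 12.6 ± 6.27 in monocyte- or dendritic cell-like cells (n = 5) and 10.3 ± 6.62 in neutrophil-like cells (n = 3). The regulators gave 30.7 ± 1.73, 25.2 ± 6.07, 19.8 ± 11.1 and 8.04 ± 6.97 in the same order. The chaperones gave 26.9 ± 4.13, 20.9 ± 5.10, 21.4 ± 6.29 and 8.41 ± 7.46. The border macrophage-like means cover libraries 3 and 5 alone, the deeper and higher plates. In these libraries the regulators were at 29.5 and 31.9 in border macrophage-like cells. They were at 33.3 and 28.1 in microglia-like cells and at 32.7 and 24.6 in monocyte- or dendritic cell-like cells. The chaperones were at 29.8 and 24.0, 22.2 and 27.5, and 28.0 and 27.7 in the same order, so both groups overlapped there. Both transcription factor sums of the border macrophage-like class lay above every sum of the other 3 classes, whereas chaperone sums of microglia-like and monocyte- or dendritic cell-like cells differed by less than the spread between libraries. Among cells of like depth, the transcription factor order of border macrophage-like and microglia-like cells did not hold throughout, as given below.

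**Figure D2:**
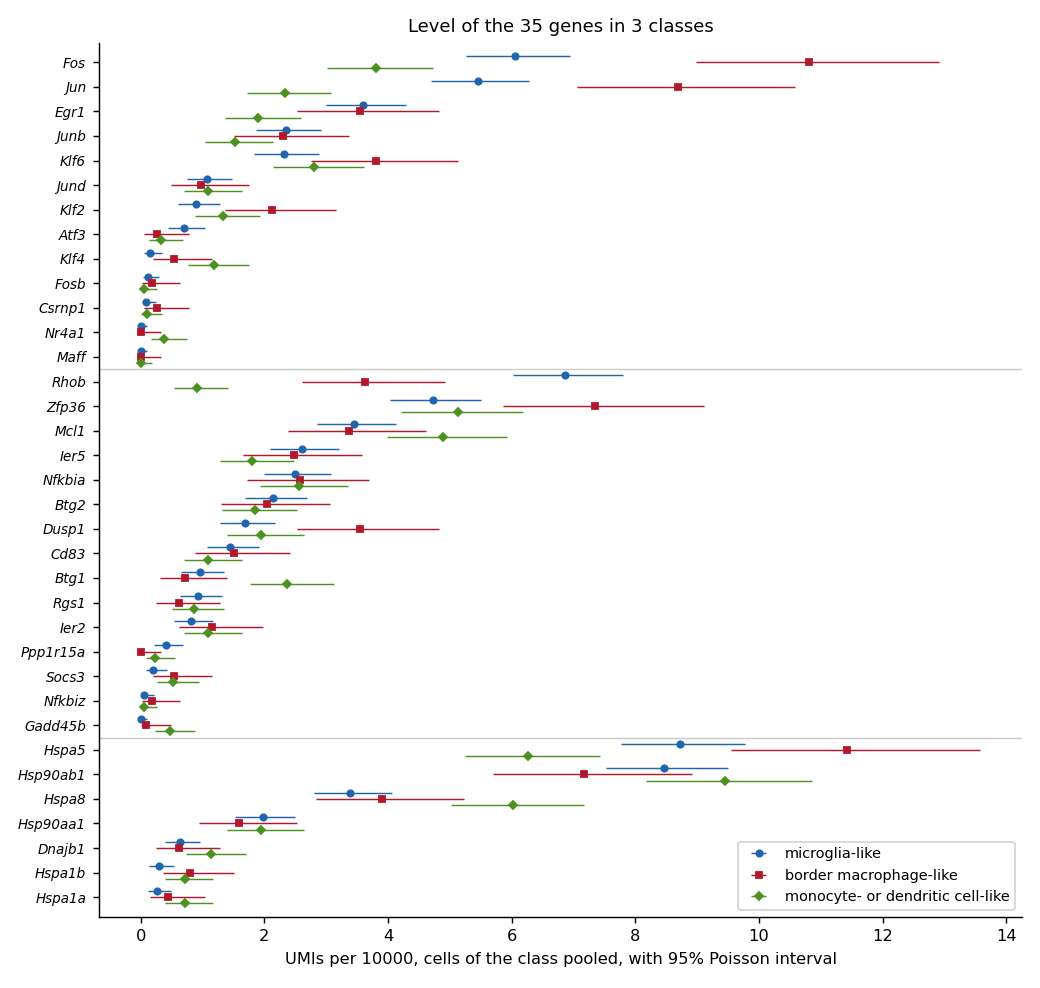
Pooled level of each of the 35 genes, in UMIs per 10000, in the microglia-like (circles), border macrophage-like (squares) and monocyte- or dendritic cell-like (diamonds) class, with 95% Poisson intervals that cover counting error only; grey lines separate transcription factors, regulators and chaperones. Fos reaches 10.8 in the border macrophage-like class against 6.06 and 3.80 in the others, and Rhob runs from 6.87 in the microglia-like class to 0.902 in the monocyte- or dendritic cell-like class.

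Fos, which encodes the inducible partner in AP-1 (chr12:85473890-85477273, plus strand of mm10), was at 4.02, 3.71, 5.65, 5.77 and 7.14 per 10000 in microglia-like cells of libraries 1 to 5. It was at 13.7 and 8.53 in border macrophage-like cells of libraries 3 and 5, and at 5.39, 2.36, 4.85, 2.21 and 3.34 in monocyte- or dendritic cell-like cells. Both border macrophage-like values lay above all microglia-like and all monocyte- or dendritic cell-like values, and the last of these classes overlapped the microglia-like one. In neutrophil-like cells of libraries 2, 4 and 5, Fos was at 8.89, 0 and 1.30.

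Jun, the other AP-1 partner (chr4:95049034-95052222, minus strand), was at 4.42, 6.50, 5.35, 11.5 and 4.78 per 10000 in microglia-like cells of libraries 1 to 5. It was at 6.14 and 11.9 in border macrophage-like cells of libraries 3 and 5, and at 1.08, 0.787, 2.27, 0 and 2.82 in monocyte- or dendritic cell-like cells. Every monocyte- or dendritic cell-like value of Jun lay below every microglia-like value, while the border macrophage-like values overlapped the microglia-like range, since libraries 2 and 4 reached 6.50 and 11.5.

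Rhob (chr12:8497661-8500009, minus strand) had the opposite order to Fos across the macrophage classes. It was at 4.42, 4.18, 8.63, 4.20 and 6.46 per 10000 in microglia-like cells of libraries 1 to 5. In border macrophage-like cells of libraries 3 and 5 it was at 4.21 and 2.97, below the microglia-like values of the same libraries. In monocyte- or dendritic cell-like cells it was at 0, 3.15, 1.21, 1.10 and 0.528, all below the lowest microglia-like library. Of the 421 Rhob UMIs in the 825 cells, 237 were in the 270 microglia-like cells.

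Zfp36 (chr7:28376784-28380253, minus strand), whose protein binds AU-rich elements and hastens mRNA decay, was at 5.22, 6.03, 4.81, 0.525 and 4.92 per 10000 in microglia-like cells. It was at 7.37 and 7.73 in border macrophage-like cells of libraries 3 and 5 and at 1.08, 2.36, 7.43, 2.21 and 4.66 in monocyte- or dendritic cell-like cells. The border macrophage-like value exceeded the microglia-like one in both libraries, whereas in library 3 the monocyte- or dendritic cell-like value was about as high.

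Hsp90ab1 (chr17:45567775-45573271, minus strand) was at 6.83, 6.50, 7.71, 5.25 and 10.1 per 10000 in microglia-like cells, at 8.77 and 5.95 in border macrophage-like cells of libraries 3 and 5, and at 5.39, 8.65, 9.85, 7.73 and 9.77 in monocyte- or dendritic cell-like cells. These ranges overlapped throughout. Hspa5 (chr2:34771970-34777547, plus strand) was at 5.63, 12.5, 7.94, 4.20 and 9.96 in microglia-like cells, at 13.3 and 10.3 in border macrophage-like cells and at 9.71, 2.36, 7.58, 3.31 and 5.90 in monocyte- or dendritic cell-like cells. The border macrophage-like value exceeded the microglia-like one in libraries 3 and 5, and the microglia-like and monocyte- or dendritic cell-like ranges overlapped. Hspa8 was at 1.61, 1.86, 4.20, 2.10 and 3.37 in microglia-like cells and at 5.39, 5.51, 6.06, 2.21 and 6.42 in monocyte- or dendritic cell-like cells, the higher of the pair in every library.

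**Figure D3:**
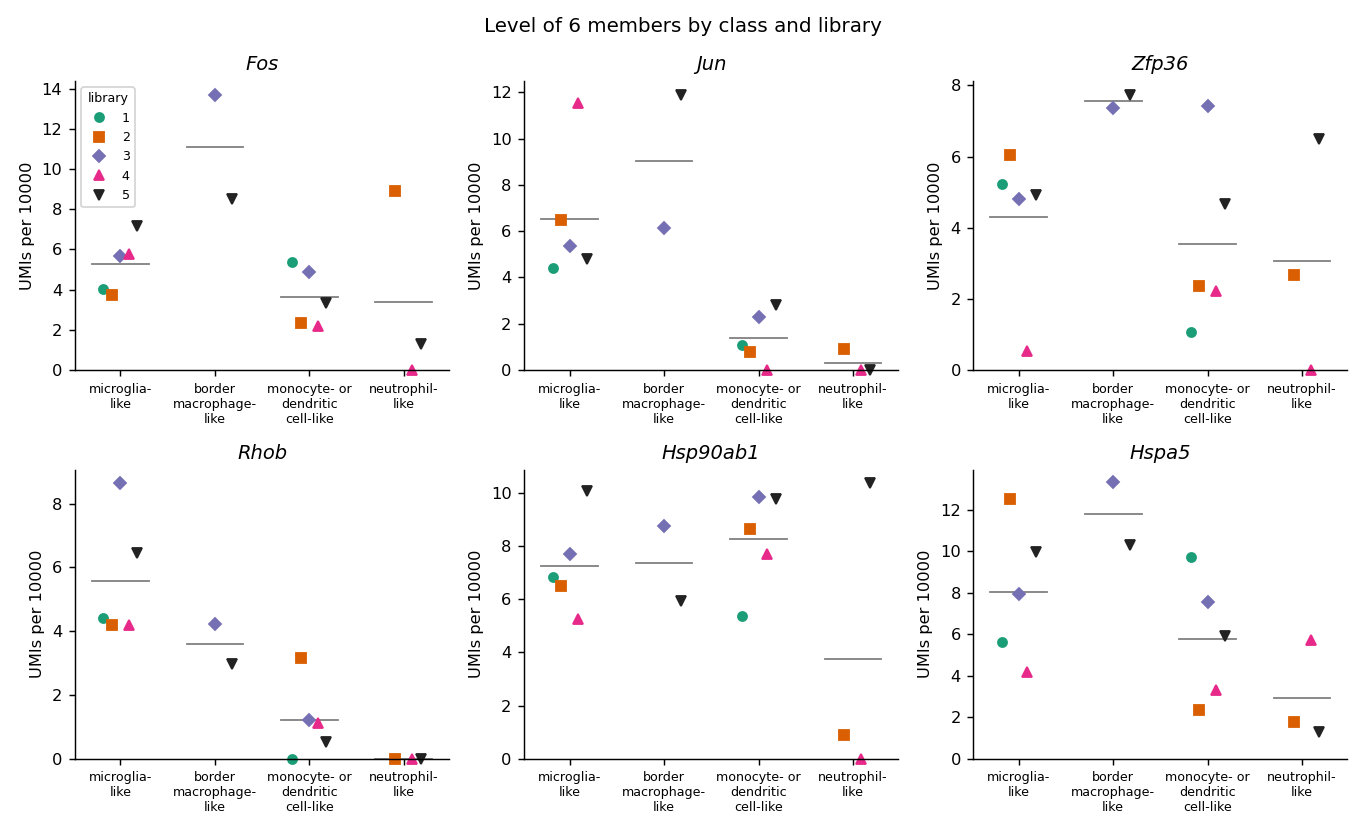
Level of 6 genes in UMIs per 10000 by cell class; each point is 1 library with at least 5 cells of the class, and the grey line is the mean over libraries. Border macrophage-like points lie above the microglia-like points for Fos (13.7 and 8.53 against at most 7.14), monocyte- or dendritic cell-like points lie below them for Jun and Rhob, and the points of Hsp90ab1 overlap in the first 3 classes.

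Among the less abundant members, pooled levels per 10000 of Egr1 were 3.59 in microglia-like, 3.54 in border macrophage-like and 1.90 in monocyte- or dendritic cell-like cells, and 0 UMIs were found in neutrophil-like cells. Dusp1 was at 1.68, 3.54 and 1.95 in those 3 classes, and Klf2, a Krüppel-like factor, at 0.899, 2.13 and 1.33. The related Klf4 was at 0.145 in microglia-like cells (5 UMIs) and 1.19 in monocyte- or dendritic cell-like cells (25 UMIs), and Btg1, an antiproliferative gene, at 0.957 and 2.37. The counting intervals of all 3 classes overlapped for 22 of the 35 genes. Among them were Junb, Jund, Klf6, Nfkbia, Btg2, Cd83, Ier2, Ier5, Mcl1, Rgs1, Socs3, Hsp90aa1, Hsp90ab1, Dnajb1, Hspa1a and Hspa1b. These intervals pool the UMIs of a class and leave out the spread between libraries. No share over all genes stands beside this count, so it does not set the members apart from other genes. Nr4a1 and Gadd45b had 0 UMIs among 344974 in microglia-like cells, which allows up to 0.0870 per 10000. In monocyte- or dendritic cell-like cells they had 8 and 10 UMIs, and over all kept cells 3 of 15 Nr4a1 UMIs and 5 of 12 Gadd45b UMIs came from a single cell. At such counts no difference between libraries could be resolved.

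To ask which members differed between border macrophage-like and microglia-like cells of the same plate, UMIs were summed per library and class and tested with edgeR's quasi-likelihood test, the library as a block and adjusted p-values (Benjamini-Hochberg) over all genes tested. Libraries 3 and 5 entered, which leaves 1 residual degree of freedom. With so few, edgeR takes the SE and p of a gene largely from the spread shared over genes. Differing ratios of a gene in the 2 libraries therefore hardly widen its SE. Of 4192 genes tested, 73 (1.74%) were called higher and 66 (1.57%) lower in the border macrophage-like class with an adjusted p below 0.05, or 3.32% in all. Of the 35 members 25 had enough UMIs to be tested, and 2 were called higher and 1 lower. Their median log2 fold change was 0.03, against -0.12 over all genes tested. Fos was higher by 0.81 on the log2 scale (SE 0.233, edgeR adjusted p = 0.0203), with a ratio of 2.42 in library 3 and 1.19 in library 5. Jun was higher by 0.82 (SE 0.259, edgeR adjusted p = 0.0459), with ratios of 1.15 and 2.49. The difference was thus larger in library 3 for Fos and in library 5 for Jun. Rhob was lower, with a log2 fold change of -1.04 (SE 0.302, edgeR adjusted p = 0.0228) and ratios of 0.488 and 0.460, close to each other. These 3 calls were not kept by DESeq2, which called 38 of the 4192 genes (0.906%) and 0 members, with 0 members at an unadjusted p under 0.05. They were also lost without the library block, which called 101 genes (2.41%) and 0 members (adjusted p = 0.138 for Fos, 0.167 for Jun and 0.111 for Rhob).

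The other 22 members tested did not pass. Dusp1 had a log2 fold change of 1.20 (SE 0.436, edgeR adjusted p = 0.127), Zfp36 of 0.66 (SE 0.273, adjusted p = 0.232) and Hspa5 of 0.43 (SE 0.214, adjusted p = 0.414), each higher in both libraries. Of 6 chaperones tested 0 were called, with 1 at an unadjusted p under 0.05, Hspa5, and 0 by DESeq2. Among 38 other early response genes 13 were tested and 1 was called: Tsc22d3, the glucocorticoid-induced leucine zipper gene. It was at 6.32 and 3.97 per 10000 in border macrophage-like cells of libraries 3 and 5 and at 1.99 and 1.41 per 10000 in the microglia-like ones. The log2 fold change was 1.61 (SE 0.380, edgeR adjusted p = 0.00153), and its adjusted p with DESeq2 was 0.314. At a minimum of 1000 or 300 UMIs per cell it came to 0.78 and 0.77 (adjusted p = 0.802 and 0.827), and the call was also lost with gate cuts halved or doubled and with no filter on low counts. Among 33 other chaperone and stress genes 25 were tested and 0 were called by edgeR or DESeq2. At an unadjusted p under 0.05 were 4 of these in edgeR and 0 in DESeq2. Over all 4192 genes tested, 480 were at an unadjusted p under 0.05 in edgeR and 130 in DESeq2.

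**Figure D4:**
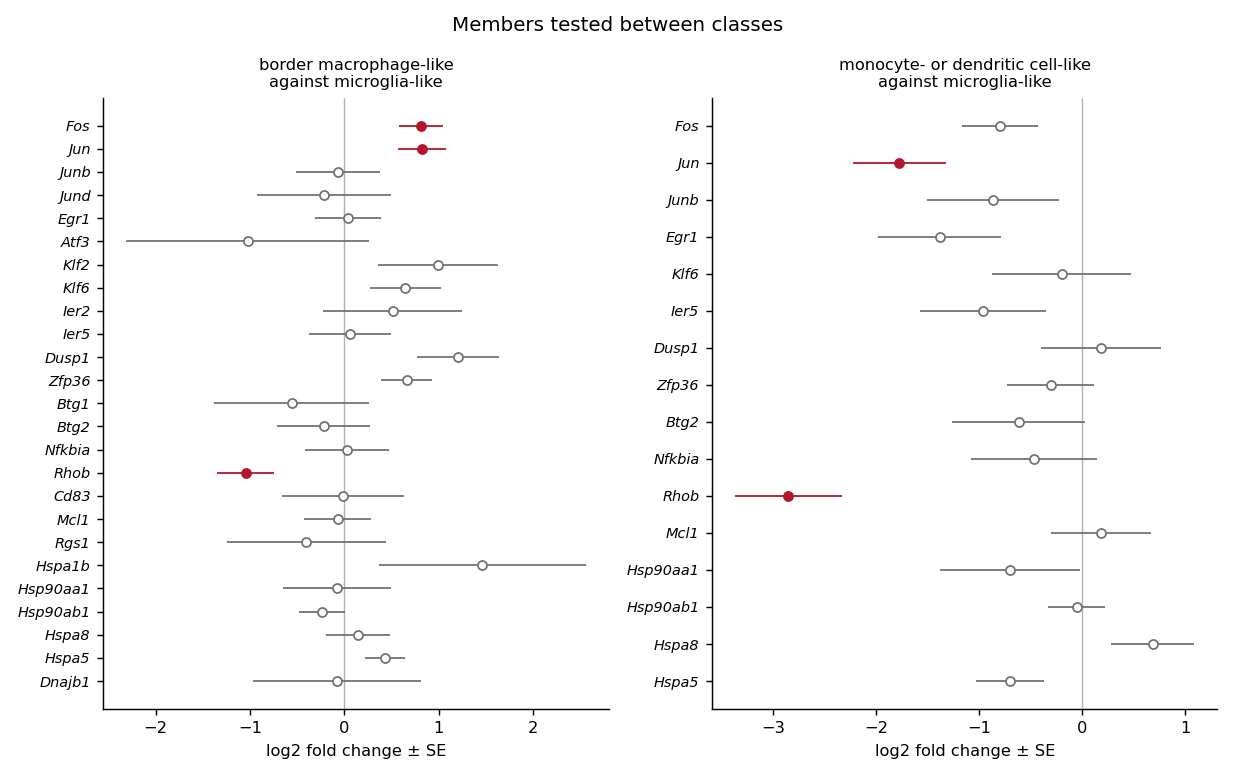
log2 fold change with its SE for each member tested, border macrophage-like against microglia-like cells (left, 25 genes, libraries 3 and 5) and monocyte- or dendritic cell-like against microglia-like cells (right, 16 genes, 5 libraries); filled red points have an edgeR adjusted p under 0.05. Fos and Jun lie to the right and Rhob to the left of 0 on the left, and Jun and Rhob lie to the left of 0 on the right.

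Monocyte- or dendritic cell-like cells were compared with microglia-like cells in all 5 libraries. Of 952 genes tested, 107 (11.2%) were called higher and 145 (15.2%) lower, 26.5% in all. Of 16 members tested 0 were called higher and 2 lower. Rhob had a log2 fold change of -2.85 (SE 0.519, edgeR adjusted p = 0.000113) and was lower in 5 of 5 libraries. Jun had a log2 fold change of -1.78 (SE 0.456, edgeR adjusted p = 0.00411), also lower in 5 of 5, and neither gene's groups overlapped. These were called by DESeq2 as well and when any 1 library was left out. Egr1 (log2 fold change -1.39, SE 0.597, edgeR adjusted p = 0.0862), Fos (-0.80, SE 0.371, adjusted p = 0.110) and Hspa5 (-0.70, SE 0.329, adjusted p = 0.113) did not pass. With RLE size factors in place of TMM these 3 were called lower too (adjusted p = 0.0267, 0.0159 and 0.0141), and DESeq2, which called 207 genes lower (21.7%), called Egr1 and Fos. The scaling shifted all genes: the median log2 fold change was -0.05 with TMM and -0.35 with RLE over all genes, and -0.66 and -0.98 over the members, and the calls were 59 higher and 218 lower (6.2% and 22.9%) with RLE.

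Hspa8 was on the other side, with a log2 fold change of 0.69 (SE 0.404, edgeR adjusted p = 0.210), higher in 5 of 5 libraries but not called. Of the 16 members 3 had a fold change above 0 and 13 below. The 33 other chaperone and stress genes gave 12 tested, of which 5 were lower in monocyte- or dendritic cell-like cells. Among them were genes of the endoplasmic reticulum: the lectin chaperone gene Canx (log2 fold change -1.47, SE 0.370, adjusted p = 0.00363), the disulfide isomerase gene Pdia3 (-1.48, SE 0.390, adjusted p = 0.00510) and Hsp90b1 (-1.96, SE 0.698, adjusted p = 0.0374), by edgeR. The Hsp90b1 call was lost without library 2 (adjusted p = 0.0593) or library 4 (0.195), and the Pdia3 call without library 5 (0.0658). With gate cuts halved the log2 fold changes came to -0.87 for Hsp90b1 (adjusted p = 0.357) and -0.75 for Pdia3 (0.295), and with cuts doubled the calls of Hsp90b1 (-1.19, 0.355) and Canx (0.0509) were lost. With no filter on low counts none of these 3 was called (adjusted p = 0.341 for Hsp90b1, 0.173 for Pdia3 and 0.0731 for Canx, by edgeR). By library from 1 to 5, Canx was at 7.63, 5.57, 7.33, 13.6 and 5.86 per 10000 in microglia-like cells and at 1.08, 2.36, 3.64, 1.10 and 3.87 in monocyte- or dendritic cell-like cells, with no overlap. Of the 38 other early response genes 5 were tested and 0 called by edgeR, with 1 at an unadjusted p under 0.05. Over all 952 genes tested, 365 were at an unadjusted p under 0.05 in edgeR. DESeq2 called 1 of the 5, Dusp6. Microglia markers pooled to 25.02 per 10000 in the monocyte- or dendritic cell-like class.

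Neutrophil-like cells were few, and their comparison with microglia-like cells in libraries 2, 4 and 5 rests on 28 of them with 22465 UMIs. Levels and floors per 10000 in this comparison are shares of all UMIs, those of the neutrophil markers included. Of 594 genes tested, 31 (5.22%) were called higher and 55 (9.26%) lower, or 14.5% in all, and the median log2 fold change over all genes was -0.94. Of 12 members tested 1, Rhob, was called lower (edgeR adjusted p = 0.0387), and their median was -0.92, so as a list they lay where all genes lay. Rhob, Egr1 and Ier5 were at 0 in every neutrophil-like sum. They passed the count filter only through the microglia-like sums, so they could only come out lower. Rhob had 0 UMIs in these 28 cells, and with 3 counts over them as a floor (1.34 per 10000) it was at least 3.70-fold lower than the mean of 4.95 ± 1.31 per 10000 (SD, n = 3) of microglia-like cells in the same libraries. The call was lost when any 1 of the 3 libraries was left out, with RLE size factors and with DESeq2, which gave it no adjusted p. Egr1 also had 0 UMIs, at least 2.69-fold lower on the same floor (edgeR adjusted p = 0.110), and Jun had 1 UMI (adjusted p = 0.0526). Fos had 11 UMIs and an adjusted p of 0.818. Over all 31 neutrophil-like cells, 19 of the 35 genes had 0 UMIs, which at this depth allows a level of up to 1.19 per 10000. Of the 33 other chaperone and stress genes 7 were tested and 0 called by edgeR or DESeq2. In edgeR 1 of them was at an unadjusted p under 0.05, against 182 of all 594 genes tested. For the 38 other early response genes 0 could be tested.

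To compare cells at the same depth, each cell was thinned at random to 500 UMIs. A UMI of at least 1 of the 35 genes was then found in 91.6% of the 825 cells (95.4% before thinning). After thinning, Hsp90ab1 was found in 27.2% of cells, Hspa5 in 26.5%, Fos in 24.0%, Zfp36 in 18.5%, Jun in 17.8% and Rhob in 16.2% (47.0, 43.4, 38.2, 35.6, 28.0 and 28.7% before). In all, 10 of the 35 genes were found in at least 10% of the thinned cells and 7 in under 1%. By class, Rhob was found in 26.7% of microglia-like, 19.0% of border macrophage-like and 3.25% of monocyte- or dendritic cell-like cells after thinning (43.7, 26.7 and 11.4% before), and in 0 of 31 neutrophil-like cells, where a count of 0 allows up to 9.68%. Fos was found in 23.0, 34.3, 17.9 and 19.4% of the 4 classes in the same order (33.7, 47.6, 31.7 and 22.6% before). The share of the monocyte- or dendritic cell-like class for Rhob thus lay below the limit set by the neutrophil-like cells.

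Spread over cells was measured as the variance of thinned UMIs divided by their mean, which is 1 for counts that vary by sampling alone. It could be computed for 26 members with at least 20 thinned UMIs and ran from 1.10 for Jund to 3.34 for Atf3, a stress-induced factor, with a median of 1.49. Atf3, Jun (2.19) and Egr1 (2.13) were above 2. Ier5 stood at 1.86, Hspa1b at 1.93, Fos at 1.68, Hsp90ab1 at 1.53 and Hspa8 at 1.13. The medians by role were 1.56 over 9 transcription factors, 1.49 over 11 regulators and 1.34 over 6 chaperones. The value of Atf3 rested on few cells, since 8 of its 27 thinned UMIs (29.6%) were in 1 cell. These values mix cell classes and libraries, so they describe the sorted population and not 1 cell type. In microglia-like cells alone, Jun was at 1.73 in library 3 and 1.28 in library 5. Egr1 was at 2.07 and 1.75 there, Fos at 1.54 and 1.57, and Hspa5 at 1.01 and 1.70.

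**Figure D5:**
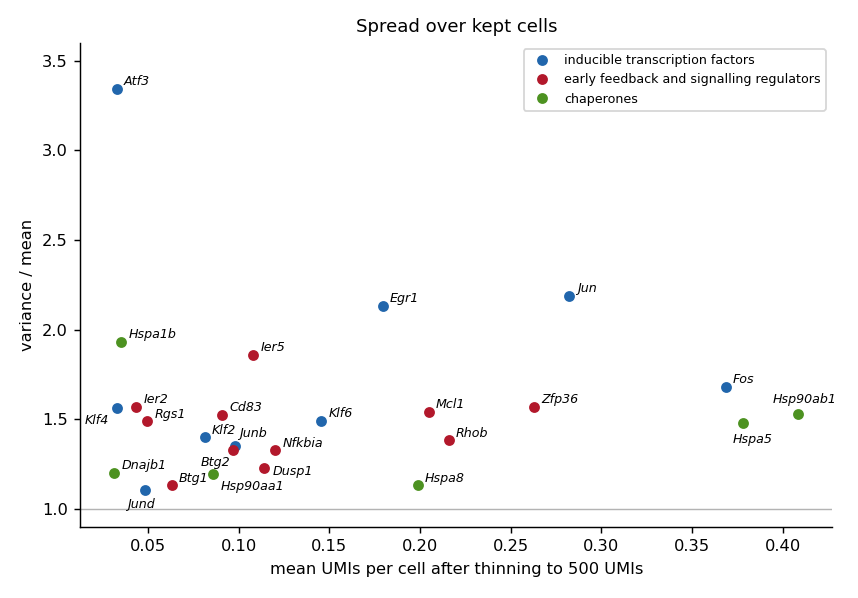
Variance divided by mean of UMIs per cell against the mean, after thinning each of 825 cells to 500 UMIs, for the 26 members with at least 20 thinned UMIs; blue points are transcription factors, red points regulators and green points chaperones, and the grey line at 1 marks sampling alone. Atf3 (3.34), Jun (2.19) and Egr1 (2.13) stand above 2, and Jund (1.10) lies nearest to the line.

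Depth within a plate moved with some of these genes. In library 3, the transcription factors summed to 30.0 per 10000 in cells of 500 to 1000 UMIs, 26.0 in cells of 1000 to 2000 and 18.9 in deeper cells, and in library 5 to 32.5, 30.8 and 19.0. The chaperones gave 26.6, 26.5 and 26.1 in library 3 and 24.0, 28.6 and 22.9 in library 5. The regulators gave 35.1, 31.1 and 28.2 in library 3 and 28.7, 32.9 and 23.0 in library 5. Over all kept cells of these plates, the deepest were lowest for all 3 groups, by the most for the transcription factors. The deepest cells differed also in class makeup. In microglia-like cells the transcription factors gave 40.6, 17.8 and 22.7 in library 3 and 22.7, 25.8 and 21.4 in library 5. In border macrophage-like and monocyte- or dendritic cell-like cells they were lowest in the deepest cells of both libraries. The border macrophage-like values were 34.5, 41.0 and 25.1 in library 3 and 36.7, 40.6 and 20.2 in library 5. The microglia-like value was thus the higher in the shallowest cells of library 3 and the deepest of library 5. In the other bins the border macrophage-like value was the higher. The deepest border macrophage-like cells numbered only 6 and 4. The other groups of genes were not lowest there in every class. Microglia-like chaperones of library 3 gave 18.5, 23.5 and 22.5. With cells under 2000 UMIs alone, Fos, Jun and Rhob were still called in border macrophage-like cells, and Jun, Rhob and also Egr1 in monocyte- or dendritic cell-like cells, an alternative chosen after seeing the data.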

How the data were processed

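Single cells of 5 plates were measured by MARS-seq. Per the labels and the methods of the study, the authors sorted CD45high CD11bhigh cells singly, excluding doublets in the sort, and deposited UMI counts, not normalized, for every gene in every well, with a well table giving the number of cells in each well. bcl2fastq 2.15.0.4 and the build mm10 are named in the submitters' processing notes; the aligner was not given in the sources used here. No doublet caller was run.

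From these counts, wells with 1 cell and at least 500 UMIs were kept, leaving out 92 spike-in (ERCC) rows. Totals per library ran from 53703 to 533433 UMIs. Cells were classed by UMIs per 10000 summed over marker lists, with cuts of 120 (microglia), 40 (border macrophage), 30 (monocyte and dendritic cell together) and 300 (neutrophil), set from the marker sums alone. Cells over several cuts were left out. This left 1 library with at least 5 neutrophil-like cells, so that the planned comparison could not be tested; after seeing the data a cell over the neutrophil cut was called neutrophil-like whatever its other sums.

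UMIs summed per library and class, with at least 5 cells, were tested with edgeR 4.0.16 in R 4.3.3 (TMM, robust quasi-likelihood fit, library as a block since a plate gave 1 sum to each class, filterByExpr with a minimum count of 3 and a minimum total of 15), with marker genes kept in library sizes and out of the tests. The SE given with edgeR is the size of the log2 fold change divided by the square root of its quasi-likelihood F statistic. DESeq2 1.42.0 was an alternative. Sums and thinned counts were made in Python 3.11.15 with numpy 2.4.6, pandas 2.3.3 and scipy 1.17.1. Intervals are exact Poisson intervals at 95%, and 3 counts set the limit for a count of 0. The scripts were tested on simulated data.

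The members, marker lists and lists of other genes were chosen with earlier results of these data known. Values in every library are given for members with an adjusted p under 0.05 in any comparison and for the 5 members with the highest level; other listed genes are named where called, at most 4 per list by smallest p, and 1 of these is not reported here. Hspa8 and the members of lower level were named after their values were seen. Gene coordinates are from the GENCODE M21 annotation and promoter sequences from RefSeq, both on GRCm38 (mm10).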

Additional observations from a re-analysis of the deposited data

Results flagged for a closer look

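Of 30 gene or sum levels checked over 5 libraries, 1 had a library far from the other 4. Zfp36 in microglia-like cells was at 0.525 per 10000 in library 4, against 4.81 to 6.03 in the other libraries, a gap of 0.778 of the whole range where 0.710 is the critical value. Such a gap is expected by chance in about 1 in 20 groups. Library 4 held 29 microglia-like cells.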

How the results depend on the processing

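In the border macrophage-like comparison, which rests on libraries 3 and 5, the 2 members called higher became 0 and the 1 called lower became 0 with DESeq2, with gate cuts doubled or halved and with a minimum of 300 UMIs per cell. The 2 higher calls also became 0 at a minimum of 1000 UMIs and with no filter on low counts. At 300 UMIs, where 5 libraries entered, the Jun log2 fold change turned to -0.27 (edgeR adjusted p = 0.928). Leaving out a library there gives a ratio with no test, which is printed with the result. The library block stands for the plate, not for a pairing in the labels: without the replicate block the border macrophage-like calls were 0 higher and 0 lower, the neutrophil-like lower calls went from 1 to 3, and the calls for monocyte- or dendritic cell-like cells stayed at 2 lower. In that comparison the 2 lower calls became 4 with DESeq2 and 5 with RLE size factors, ranged from 2 to 3 with a library left out, and 2 members (Btg1 and Hspa8) were called higher at 1000 UMIs, where 2 libraries remained. The neutrophil-like lower call became 0 with DESeq2, RLE, gate cuts doubled, 300 UMIs, no filter or any library left out (0 to 0). With a minimum count of 10 no member was tested there, and the planned neutrophil gate gave no test.

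The border macrophage-like sum of 92.4 per 10000 moved to 117 without mitochondrial genes, Gm42418 and Gm26917, 96.1 as a mean over cells, 84.2 (SD 23.0) and 89.8 at 300 and 1000 UMIs, and 90.1 (SD 12.5) and 97.1 with cuts halved and doubled. With the same mitochondrial and other genes left out, the microglia-like sum went from 67.5 to 79.9 (SD 17.0). The monocyte- or dendritic cell-like sum then went from 53.8 to 66.0 (SD 24.8). At 1000 UMIs the microglia-like sum moved to 82.7 and the monocyte- or dendritic cell-like sum to 74.1. At 300 UMIs the neutrophil-like sum moved to 60.2. With a library left out the sums ranged from 91.4 to 93.4, 64.6 to 72.1, 47.4 to 58.9 and 18.1 to 35.8 in the border macrophage-like, microglia-like, monocyte- or dendritic cell-like and neutrophil-like classes. Of the tested fold changes of single named genes under an alternative, 149 kept their side of the threshold, 35 lost it, 10 gained it and 1 turned. The cause was not tested. These counts include runs that could not differ. The neutrophil-first gate left the sums of the other classes unchanged, as did a minimum of 10 cells per sum for border macrophage-like cells. For monocyte- or dendritic cell-like cells that minimum was the same run as leaving out library 1. Depth limits the members with few UMIs and the small plates 1, 2 and 4 most.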
